A study of Mus musculus with 8 samples.

Results

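The genes described here are 10 integrin subunits of T cells, the 6 alpha chains Itgae, Itgal, Itga4, Itga6, Itgav and Itga1 and the 4 beta chains Itgb7, Itgb2, Itgb1 and Itgb3. They were taken by symbol from a list of names, with no threshold on their values but with earlier results of these data known, out of 49315 genes in the count files, and all 10 were found and passed the filter on low counts. The RNA came from OT-I CD8 T cells (cytotoxic T cells of mice whose transgenic receptor sees a peptide of ovalbumin) that had undergone CRISPR-Cas9 editing with a crRNA against Carm1 (labelled Carm1 KO, 4 libraries) or against the bacterial gene LacZ (labelled Control KO, also WT, 4 libraries). The product of Carm1 methylates arginines of histones and other proteins and works as a coactivator. Naive cells from spleen and inguinal lymph nodes of OT-I mice (the edited cells carried the CD45.1 allele) were cultured in both groups with 2.5 ng/ml IL-7 and 50 ng/ml IL-15, and RNA was taken 7 days after editing. In the series text both groups had been kept together with B16F10-Ova tumor cells, a step absent from the sample protocols. Neither the age and sex of the mice nor the number of mice or cultures per group is given. The protocol speaks of technical replicates, so the p-values rest on a spread between the 4 libraries of a group that may be technical, and the edit and any other difference between the groups' cultures cannot be told apart.

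Integrins are cell surface receptors made of one alpha and one beta chain, which bind counter-receptors on other cells or the extracellular matrix. The chains pair before they reach the surface, and a beta chain can serve several alpha chains. In T cells αL pairs with β2 to form LFA-1, which binds ICAMs in firm adhesion and in the contact with a target cell. The chain α4 pairs with β1 to bind VCAM-1 and fibronectin, or with β7 to bind MAdCAM-1 of gut vessels. The chain αE, also called CD103, pairs with β7 alone, binds E-cadherin and marks T cells that stay in epithelia.

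The control libraries held 38768760 to 41439998 counts each and the Carm1-edited ones 37556330 to 39988442. Levels are given in CPM, a gene's count relative to the library total after TMM scaling, with the SD over the 4 libraries of a group, and fold changes are Carm1-edited over control. Carm1 itself was at 95.9 ± 1.04 and 32.8 ± 0.493 CPM. Of 14970 genes tested by edgeR's quasi-likelihood test, 87.7% passed at an adjusted p under 0.05, with 6667 higher and 6468 lower. With upper-quartile factors the split was 8004 to 5121, and the median gene shifted upward by 0.21 on the log2 scale (by 0.16 with unscaled library totals), so differences of that size rest on the scaling. The T cell markers Cd8a and Cd8b1 were the most abundant of 9, whose sum lay between 4367 and 4467 CPM per control library and between 6383 and 6581 CPM per Carm1-edited library. Of 11 myeloid markers 10 were tested and all 10 fell, the sum going from a range of 109 to 113 CPM to one of 4.33 to 5.20 CPM, with S100a8 and S100a9 at 0 in the Carm1-edited libraries. The part of other cell types in the results was not tested, and in bulk RNA fewer cells of a type and less RNA per cell cannot be told apart.

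All 10 integrin genes passed the test, 7 higher and 3 lower in the Carm1-edited libraries (Itgb1, among the 3, turned the other way with upper-quartile factors), where 44.5% of all tested genes were called higher and 43.2% lower. The groups overlapped for none of the 10, and 83.4% of all tested genes likewise did not overlap, 42.2% with the edited libraries higher and 41.2% with them lower. The differences were of ordinary size for these libraries, with a median absolute log2 fold change of 0.72 over the 10 genes and 0.69 over all tested genes. A change of at least 2-fold was found for Itgae, Itga4 and Itga1, 3 of 10 genes against 35.7% of all tested genes (20.5% higher, 15.2% lower). Of these, Itgae and Itga1 changed at least 8-fold, as did 6.43% of all tested genes, 3.94% upward and 2.49% downward. Against a change of 1.5-fold, tested with edgeR's glmTreat, 7 of the 10 passed, all but Itgal, Itgb1 and Itgb2, against 49.7% of all tested genes. The range among the 10 went from a 10.0-fold rise of Itgae to a 9.04-fold fall of Itga1.

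**Figure D1:**
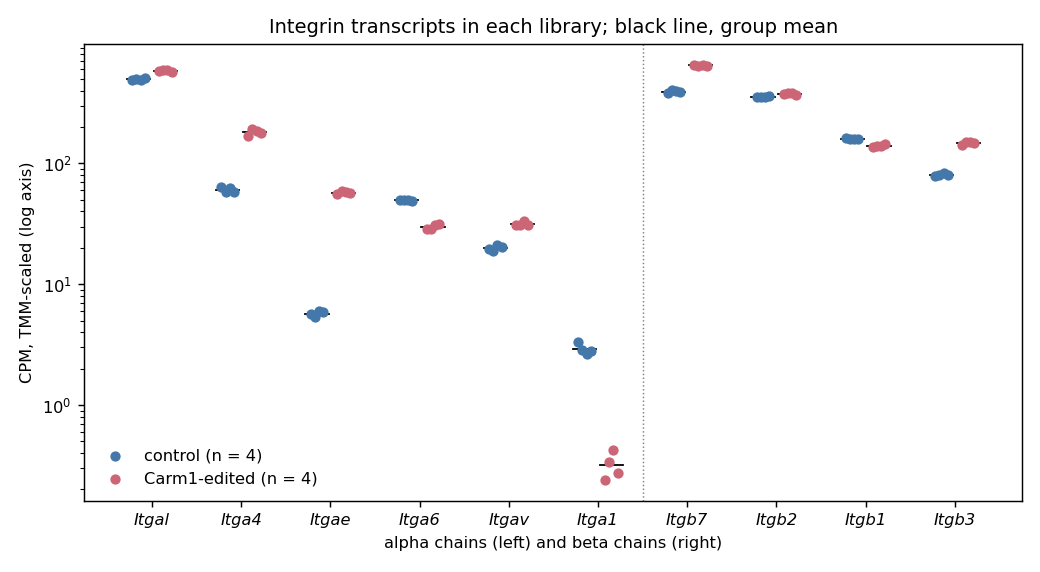
Levels of the 10 integrin genes in each of 8 libraries (y axis, TMM-scaled CPM on a log axis), alpha chains left and beta chains right of the dotted line, with control libraries in blue, Carm1-edited libraries in red and a black line at each group mean. Itgae and Itga1 show the widest gaps between the groups, from 5.71 to 57.4 CPM and from 2.90 to 0.319 CPM, while Itgb2 and Itgb1 lie close together.

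The β7 chain and its 2 alpha partners rose together. Itgae (ENSMUSG00000005947, chromosome 11, 73090583 to 73147446, plus strand, mm10), the αE chain, was at 5.68, 5.30, 6.02 and 5.84 CPM in control replicates 1 to 4. In Carm1-edited replicates 1 to 4 it was at 55.9, 58.7, 58.0 and 56.9 CPM. Every edited library thus lay far above every control library, and the means were 5.71 ± 0.308 and 57.4 ± 1.25 CPM. The log2 fold change was 3.33 ± 0.045 (SE; edgeR quasi-likelihood test, adjusted p = 1.3e-41), and Itgae stood at rank 450 of the 14970 tested genes by fold change. Haspin, a mitotic kinase gene on the opposite strand within Itgae (73135485 to 73138294), shares none of its exon bases with the exons of Itgae. It was at 10.5 ± 0.590 and 14.1 ± 0.551 CPM, a log2 fold change of 0.42. CD103 is also carried by some dendritic cells. The sum of their 6 markers lay between 3.37 and 4.05 CPM per control library and between 2.88 and 4.19 CPM per Carm1-edited library. That sum joined opposite moves. Among the 4 tested markers 2 rose and 2 fell, beside 44.5% higher and 43.2% lower over all tested genes. Flt3 fell from 0.423 ± 0.118 to 0.0732 ± 0.0589 CPM and Xcr1 from 0.970 ± 0.133 to 0.598 ± 0.156 CPM. Zbtb46 rose from 0.405 ± 0.173 to 0.745 ± 0.170 CPM. Itgax, itself an integrin subunit, rose from 1.77 ± 0.186 to 2.18 ± 0.333 CPM. Both that rose overlapped between the groups.

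Itga4 (ENSMUSG00000027009, chromosome 2, 79255426 to 79333123, plus strand), the α4 chain, was at 63.2, 58.5, 62.4 and 58.2 CPM in the control libraries. It was at 168, 191, 186 and 178 CPM in the Carm1-edited libraries, where replicate 1 was the lowest and replicate 2 the highest. All of them exceeded the control libraries, with means of 60.6 ± 2.59 and 181 ± 10.0 CPM and a log2 fold change of 1.58 ± 0.038 (edgeR, adjusted p = 7.9e-18), a 2.98-fold rise. Itga4 shares 1124 of its 13978 exon bases, 8.04%, with Cerkl, a gene related to ceramide kinase that runs on the opposite strand. The library kit does not mark strand, so reads in that stretch could belong to either gene. Cerkl counts were few, 39 to 47 in a control and 162 to 195 in a Carm1-edited library, against 2132 to 2494 and 7040 to 7955 for Itga4.

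Itgb7 (ENSMUSG00000001281, chromosome 15, 102215995 to 102231935, minus strand), the β7 chain, was at 383, 401, 395 and 394 CPM in the control libraries. The Carm1-edited libraries held 653, 637, 656 and 642 CPM, again with no overlap. The means were 393 ± 7.52 and 647 ± 8.62 CPM, a 1.64-fold rise with a log2 fold change of 0.72 ± 0.022 (edgeR, adjusted p = 3.8e-29). B cells also carry β7, and the sum of 9 B cell markers went from between 274 and 281 to between 931 and 957 CPM. Of the 4 tested, 3 rose and 1 fell, beside 44.5% higher and 43.2% lower over all tested genes. Ighm, an immunoglobulin heavy chain constant gene, made up most of the sum at 254 and 925 CPM. The B cell receptor signalling chain genes Cd79b and Cd79a rose from 5.71 ± 0.248 to 17.1 ± 0.886 CPM and from 0.460 ± 0.0373 to 1.93 ± 0.324 CPM, whereas the light chain gene Igkc fell from 17.5 ± 0.674 to 0.306 ± 0.144 CPM. Ms4a1 and Pax5, which define B cells and did not pass the filter, were at 0.0923 and 0.0812 CPM in the control and at 0.00625 and 0.0185 CPM after the edit.

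Promoter sequence was at hand for 5 of the 10 genes. It is shown for the α4 chain, which rose, and for its alternative beta partners, β7, which rose, and β1, for which no direction held. Each line gives the 250 bases before the RefSeq start (GRCm38.p6), 5′ to 3′ on the strand of the gene, with capitals for any match on either strand to one of 6 motifs.
Itga4 (chr2:79255176-79255425, plus strand): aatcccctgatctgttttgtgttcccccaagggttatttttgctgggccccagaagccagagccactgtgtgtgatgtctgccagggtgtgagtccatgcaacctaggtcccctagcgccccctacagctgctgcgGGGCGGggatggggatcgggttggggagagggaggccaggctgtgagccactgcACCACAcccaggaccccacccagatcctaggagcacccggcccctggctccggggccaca
Itgb7 (chr15:102231936-102232185, minus strand): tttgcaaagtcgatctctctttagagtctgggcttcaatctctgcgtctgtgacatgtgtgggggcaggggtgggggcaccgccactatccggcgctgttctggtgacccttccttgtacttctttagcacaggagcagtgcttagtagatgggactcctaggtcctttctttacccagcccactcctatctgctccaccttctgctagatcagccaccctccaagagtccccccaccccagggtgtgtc
Itgb1 (chr8:128685404-128685653, plus strand): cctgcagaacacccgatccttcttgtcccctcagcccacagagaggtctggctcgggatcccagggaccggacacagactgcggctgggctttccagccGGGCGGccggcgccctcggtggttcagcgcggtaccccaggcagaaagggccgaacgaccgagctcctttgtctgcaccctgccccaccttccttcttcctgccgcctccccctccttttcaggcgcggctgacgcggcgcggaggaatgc
The motifs searched were RUNX (TGTGGT), ETS (CCGGAAG), TCF/LEF (CTTTGAT), AP-1 (TGANTCA), E-box (CACGTG) and GC box (GGGCGG), which do not overlap in these windows. The Itga4 window holds a RUNX match that begins 60 bases before the start, written on the other strand, and a GC box at 114 bases before it. A RUNX match was present in 14.0% and a GC box in 32.7% of 32851 promoter windows of that length. The Itgb1 window holds a GC box at 151 bases before the start, and the Itgb7 window holds no match, nor do those of Itgav and Itga1. The GC content was 64.0% for Itga4, 56.0% for Itgb7 and 68.0% for Itgb1, with 6, 5 and 21 CG dinucleotides. These matches are a description of the letters in the windows.

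The LFA-1 chains, the most abundant alpha chain and an abundant beta chain, differed little. Itgal (ENSMUSG00000030830, chromosome 7, 127296260 to 127335138, plus strand), the αL chain, was at 489, 499, 489 and 509 CPM in the control and at 577, 597, 596 and 574 CPM in the Carm1-edited libraries. Without overlap between the groups, the mean rose 1.18-fold, a log2 fold change of 0.24 ± 0.022 (edgeR, adjusted p = 5.7e-13). Itgb2 (ENSMUSG00000000290, chromosome 10, 77530252 to 77565708, plus strand), the β2 chain of the leukocyte integrins, was at 352, 358, 356 and 361 CPM in the control and at 375, 380, 383 and 371 CPM in the Carm1-edited libraries. Its log2 fold change of 0.08 ± 0.021 (edgeR, adjusted p = 0.00052) was smaller than the shift between scalings. Under the alternatives it ran from 0.06 to 0.30, always higher in the Carm1-edited libraries. Itgam, the myeloid partner of β2 and itself among the 11 myeloid markers, fell from 2.12 ± 0.352 to 1.08 ± 0.261 CPM. The sum of those markers went from a range of 109 to 113 CPM to one of 4.33 to 5.20 CPM.

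Among the β1 integrins the beta chain was nearly level, while its alpha chains α1 and α6 fell and α4 and αv rose. Itgb1 (ENSMUSG00000025809, chromosome 8, 128685654 to 128733200, plus strand) was at 163, 158, 160 and 159 CPM in the control and at 138, 139, 141 and 145 CPM in the Carm1-edited libraries. It passed as lower with a log2 fold change of -0.19 ± 0.023 (edgeR, adjusted p = 1.3e-09). Upper-quartile factors turned the value to 0.026 (edgeR, adjusted p = 0.29), and unscaled totals brought it to -0.03 (edgeR, adjusted p = 0.26). In 14 of 17 alternatives its direction and call stayed the same. The test against a 1.5-fold change, which it also missed, does not bear on direction. A direction for Itgb1 thus rests on the scaling and is not given by these data.

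Itga1 (ENSMUSG00000042284, chromosome 13, 114958079 to 115101964, minus strand), the α1 chain of a collagen receptor found on tissue-resident T cells, was scarce. It was at 3.29, 2.83, 2.66 and 2.81 CPM in the control libraries and at 0.239, 0.337, 0.425 and 0.276 CPM in the Carm1-edited libraries, which rested on 98 to 130 and 10 to 17 counts per library. Each edited library lay below each control library. The log2 fold change was -3.18 ± 0.17 (edgeR, adjusted p = 4.3e-20), and 2.25% of all tested genes fell further. Pelo, a ribosome rescue gene on the same strand within Itga1, shares no exon bases with it and fell from 31.8 ± 0.822 to 18.3 ± 0.281 CPM. Natural killer cells carry α1 as well, and the summed level of 4 of their markers ran from 8.57 to 9.57 CPM in the control and from 1.87 to 2.82 CPM in the Carm1-edited libraries.

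Itga6 (ENSMUSG00000027111, chromosome 2, 71745616 to 71858416, plus strand), the α6 chain of laminin receptors, was at 49.8, 50.1, 49.7 and 48.6 CPM in the control libraries. It was at 28.9, 28.7, 30.9 and 31.4 CPM in the Carm1-edited libraries, all below the control. The fall was 1.65-fold, with a log2 fold change of -0.73 ± 0.034 (edgeR, adjusted p = 1.7e-22).

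Both chains of the vitronectin receptor rose. Itgav (ENSMUSG00000027087, chromosome 2, 83724397 to 83806916, plus strand), the αv chain, which also takes part in the activation of latent TGF-β, was at 19.7, 18.9, 20.9 and 20.4 CPM in the control and at 31.0, 31.0, 33.3 and 30.8 CPM in the Carm1-edited libraries. Every edited library exceeded every control library, by a log2 fold change of 0.66 ± 0.042 (edgeR, adjusted p = 4.6e-18). It shares 634 of 10744 exon bases, 5.90%, with the predicted gene Gm13684, which had 6 counts or fewer in any library. Itgb3 (ENSMUSG00000020689, chromosome 11, 104608000 to 104670476, plus strand), the β3 chain, was at 79.0, 79.6, 83.4 and 79.5 CPM in the control and at 143, 150, 151 and 147 CPM in the Carm1-edited libraries. It rose 1.84-fold, with a log2 fold change of 0.88 ± 0.025 (edgeR, adjusted p = 8.0e-30), and the groups lay well apart.

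Platelets and melanoma cells are known sources of β3 transcripts. Of 7 platelet and megakaryocyte markers 4 were tested, of which 1 rose and 3 fell, beside 44.5% higher and 43.2% lower over all tested genes. Pf4 fell from 3.70 to 0.154 CPM, Ppbp from 0.600 to 0.0311 CPM and Itga2b, the platelet partner of β3, from 7.21 to 5.28 CPM. Gp1ba rose from 0.763 to 3.59 CPM. The melanoma markers Tyr, Tyrp1, Dct and Sox10 had no counts in any of the 8 libraries. Mlana had none in the Carm1-edited libraries, and of the remaining markers of that list Pmel was at 3.43 and 12.7 CPM and Mitf at 0.788 and 1.91 CPM in control and Carm1-edited libraries.

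**Figure D2:**
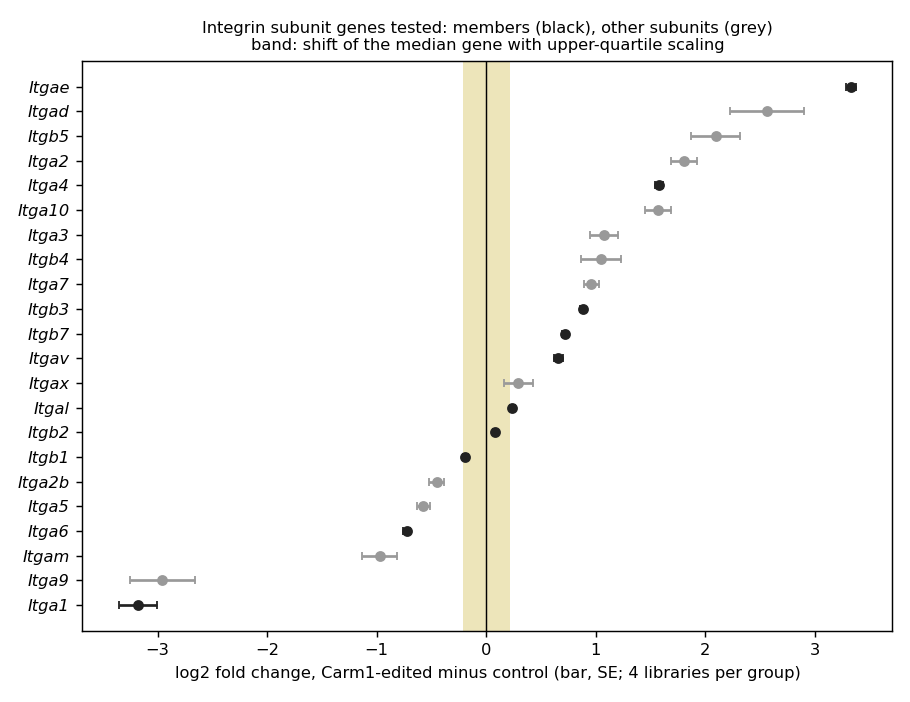
Log2 fold change, Carm1-edited minus control, of the 22 integrin subunit genes tested (x axis; points with SE, 4 libraries per group), with the 10 genes described in black and the other subunits in grey. The band spans the shift of the median gene of 0.21 on either side of 0, and Itgb2 and Itgb1 lie inside it, while Itgal lies just outside it.

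Levels per length set the chains side by side. In CPM per kb of exon the order in the control libraries was Itgb7 (143 ± 2.74), Itgb2 (117 ± 1.25), Itgal (75.6 ± 1.49), Itgb1 (39.2 ± 0.500), Itgb3 (13.6 ± 0.344), Itga6 (5.49 ± 0.0739), Itga4 (4.33 ± 0.185), Itgav (1.86 ± 0.0836), Itgae (1.25 ± 0.0672) and Itga1 (0.484 ± 0.0459). No neighbours in this order overlapped. The first 5 places were the same in the Carm1-edited libraries, where Itgb7 was at 236 ± 3.14 and Itgb3 at 25.1 ± 0.614 CPM per kb. Itga4 (12.9 ± 0.718) and Itgae (12.5 ± 0.273) followed at levels that overlapped between libraries, ahead of Itga6 (3.32 ± 0.156), Itgav (2.93 ± 0.112) and Itga1 (0.0533 ± 0.0136). These levels depend on the gene lengths in the files, which merge all annotated exons, and Itga4, with 13978 bases, has the longest such model of the 10.

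Summed over 18 alpha-chain genes, the level was 97.0 ± 1.32 CPM per kb in the control and 131 ± 3.16 CPM per kb in the Carm1-edited libraries. Over 9 beta-chain genes it was 313 ± 3.24 and 420 ± 3.99 CPM per kb. Within the alpha chains the share of Itgal went from 77.9% ± 0.480 to 68.4% ± 0.258, that of Itgae from 1.29% ± 0.0748 to 9.60% ± 0.0912 and that of Itga4 from 4.47% ± 0.247 to 9.90% ± 0.346. The share of Itga6 went from 5.66% ± 0.141 to 2.55% ± 0.141. Among the beta chains the share of Itgb7 widened from 45.8% ± 0.436 to 56.2% ± 0.405, and Itgb2 held 37.3% ± 0.239 and 29.5% ± 0.312. Itgb1 went from 12.5% ± 0.291 to 8.20% ± 0.209. The mix of integrin transcripts in the Carm1-edited libraries thus held more αE, α4 and β7 and less αL, β2, α6 and β1 as shares, which are shares of a larger sum. In level Itga6 fell as well, whereas Itgal rose, Itgb2 was higher by less than the shift between scalings and Itgb1 had no settled direction.

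**Figure D3:**
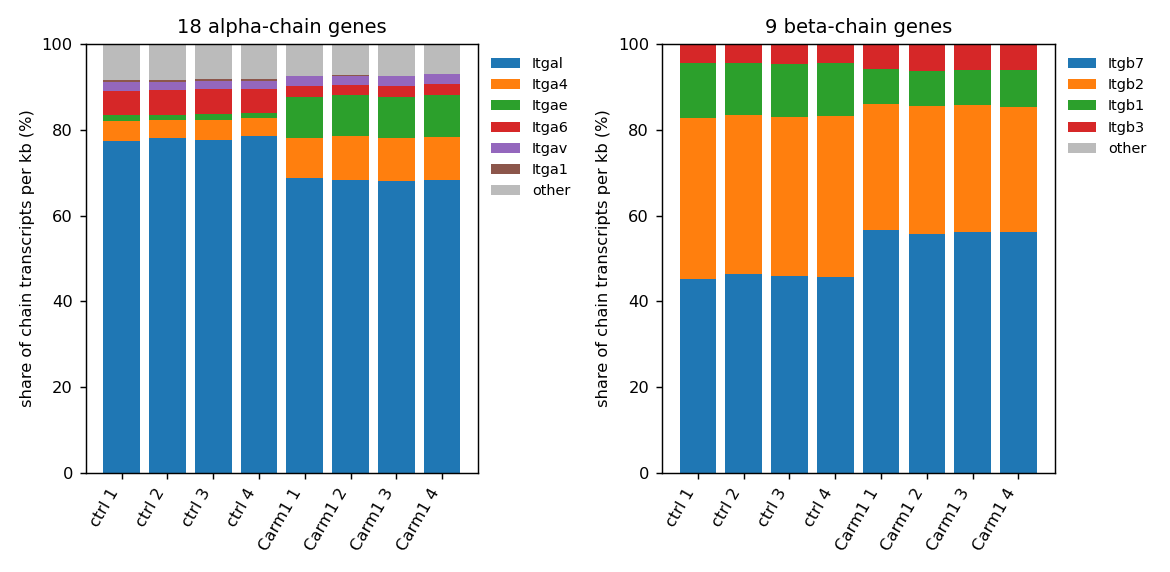
Share of each chain in the summed CPM per kb of 18 alpha-chain genes (left) and 9 beta-chain genes (right), one bar per library, in percent. The αE and α4 shares widen from 1.29% and 4.47% in the control to 9.60% and 9.90% in the Carm1-edited libraries, and β7 from 45.8% to 56.2%.

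Ratios between chains within a library do not depend on scaling. For 10 pairs of chains that form a receptor or compete for a partner, the log2 ratio of counts per kb was compared between groups by an exact two-sided permutation test (n = 4 per group). None of the 10 overlapped between groups, and each p was 0.0286, the smallest that 4 against 4 allows, with an adjusted p of 0.0286 over the 10. Of all tested genes taken singly 83.4% did not overlap either, and ratios of other gene pairs were not tested. The lack of overlap is thus not particular to these pairs. The ratio of Itgae to Itgb7 went from 0.00868 to 0.0531, a difference of 2.61 on the log2 scale, and that of Itga4 to Itgb7 from 0.0302 to 0.0548, a difference of 0.86. Both alpha partners rose more than β7 did. Itgae, which competes with Itga4 for β7, went from 0.288 to 0.969 times the level of Itga4 per kb.

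The partners of β1 parted. Per kb, Itga4 went from 0.110 to 0.376 of Itgb1, a log2 difference of 1.77, and Itgav at 0.0474 and 0.0853, a log2 difference of 0.85. In contrast the log2 ratio of Itga6 to Itgb1 fell by 0.54 and that of Itga1 to Itgb1 fell by 3.02. The 2 beta chains open to α4 also shifted against each other. Itgb7 was 3.66 times Itgb1 per kb in the control and 6.86 times in the Carm1-edited libraries, a log2 difference of 0.91. Smaller shifts were found for Itgal over Itgb2, from 0.647 to 0.721, and for Itgav over Itgb3, from 0.136 to 0.117.

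**Figure D4:**
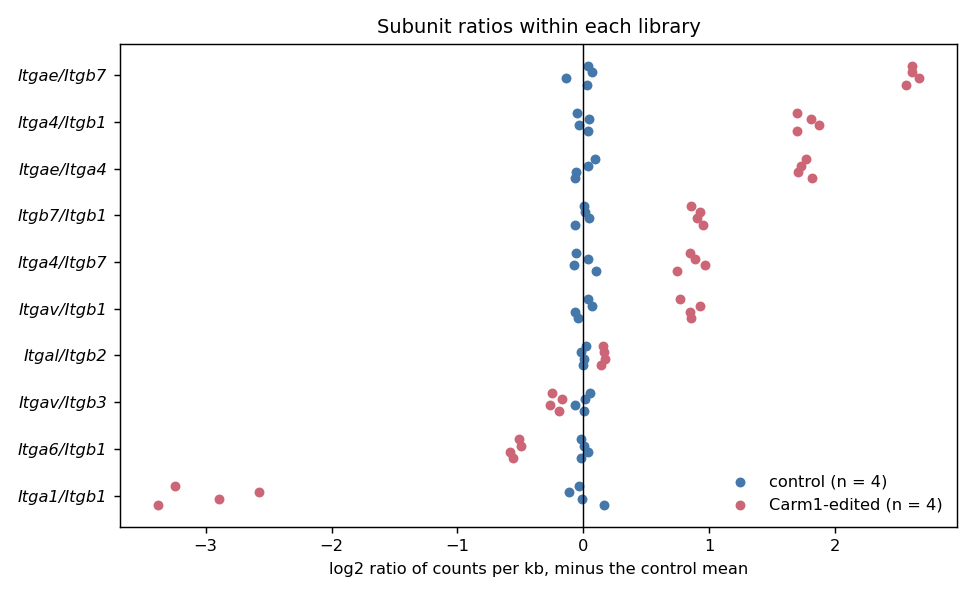
Log2 ratio of counts per kb for 10 pairs of integrin chains in each library, given as the distance from the control mean (x axis), with control libraries in blue and Carm1-edited libraries in red. Itgae over Itgb7 lies highest, 2.61 above the control mean, and Itga1 over Itgb1 lowest, while the groups of Itgal over Itgb2 stand only 0.16 apart.

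The other integrin subunit genes were mostly scarce. Of 17 such genes 12 were tested, of which 8 rose and 4 fell, where 44.5% of all tested genes were higher and 43.2% lower (median log2 fold change 1.00, against 0.02 over all tested genes), and Itga8, Itga11, Itgb2l, Itgb6 and Itgb8 did not pass the filter. One of those higher, Itgax, overlapped between the groups, at 1.53 to 1.95 CPM in the control and 1.68 to 2.37 CPM in the Carm1-edited libraries (edgeR, adjusted p = 0.033). The number higher was 7 with DESeq2, with limma-voom, without a filter and with any one of 5 libraries left out. Itga2, a collagen-binding alpha chain, rose from 1.15 ± 0.136 to 4.03 ± 0.156 CPM, and Itga10, another one, from 1.31 ± 0.263 to 3.89 ± 0.154 CPM. Itga7, a laminin-binding chain, rose from 6.74 ± 0.737 to 13.1 ± 1.05 CPM (log2 fold change 0.96 ± 0.068; edgeR, adjusted p = 3.2e-15). Itga5, the α5 chain of the fibronectin receptor, fell from 14.6 ± 0.438 to 9.82 ± 0.791 CPM (log2 fold change -0.57 ± 0.056; edgeR, adjusted p = 2.5e-12). The collagen-binding chains thus did not move one way, since Itga1 fell while Itga2 and Itga10 rose. No counted gene of these 12 reached the level of Itga6 per kb in the control, the highest being Itga5 at 3.29 ± 0.0985 CPM per kb.

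Integrins are switched from a low to a high affinity state from inside the cell, when Rap1 in its active form brings talin and kindlin to the beta tail. Of 22 tested genes of this activation pathway 12 rose and 10 fell (median log2 fold change 0.14), and 3 others did not pass the filter. Over all tested genes 44.5% were called higher and 43.2% lower. Rap1gap, Rap1gap2 and Sipa1 of this list turn Rap1 off, and all rose, with log2 fold changes of 3.80, 0.94 and 0.30. Rap1gap was scarce, at 0.0998 and 1.43 CPM. The count thus mixes activators with genes that act against Rap1. Rasgrp2, an exchange factor that activates Rap1, rose from 48.1 ± 1.47 to 234 ± 5.12 CPM (log2 fold change 2.28 ± 0.026; edgeR, adjusted p = 6.5e-44). Fyb, which encodes the adaptor ADAP, rose from 176 ± 5.10 to 678 ± 13.2 CPM. Rasgrp1, a related exchange factor, fell from 347 ± 4.25 to 211 ± 6.99 CPM, and Stk4, a kinase downstream of the Rap1 effector RAPL, rose from 278 ± 4.59 to 453 ± 11.8 CPM. Talin itself, Tln1, was at 588 ± 6.00 and 536 ± 16.7 CPM and the leukocyte kindlin gene Fermt3 at 363 ± 3.62 and 347 ± 4.27 CPM, both named for their role after their values were seen. Their log2 fold changes of -0.13 and -0.06 are smaller than the shift between scalings.

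Among 9 genes listed as inhibitors of activation 5 rose and 4 fell (median log2 fold change 0.11), beside 44.5% higher and 43.2% lower over all tested genes. Flna, a filamin that competes with talin for the beta tail, fell from 520 ± 4.24 to 217 ± 8.42 CPM (log2 fold change -1.26 ± 0.024; edgeR, adjusted p = 1.9e-36). Dok1, a tail-binding adaptor, rose from 27.2 ± 0.714 to 53.8 ± 2.08 CPM, and Krit1, which binds an inhibitor of β1 activation, from 47.8 ± 0.760 to 87.9 ± 2.91 CPM. Krit1 is in the list as a partner of an inhibitor and not as an inhibitor itself, so this count mixes roles too. Dok2, a relative of Dok1, rose from 62.7 ± 1.09 to 97.2 ± 1.79 CPM. With upper-quartile factors the number lower went from 10 to 6 in the activation pathway and from 4 to 1 among the inhibitors.

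Of 28 tested genes of signalling and structure at the adhesion site 11 rose and 14 fell (median log2 fold change -0.10), while Ilk, Rsu1 and Tns4 missed the threshold. The shares over all tested genes were 44.5% higher and 43.2% lower. Lpxn, a leukocyte relative of paxillin, rose from 48.2 ± 2.02 to 149 ± 3.04 CPM, Evl, an actin-regulating Ena/VASP protein, from 234 ± 2.60 to 632 ± 0.518 CPM, and Actn1, an actin crosslinker, from 153 ± 3.22 to 414 ± 11.4 CPM. Nedd9, a docking protein of β1 signalling in lymphocytes, fell from 147 ± 1.33 to 66.4 ± 0.792 CPM (log2 fold change -1.15 ± 0.024; edgeR, adjusted p = 8.2e-35). Close relatives moved apart here, with Vasp at 407 ± 2.47 and 272 ± 4.45 CPM and Actn4 at 399 ± 5.66 and 220 ± 5.14 CPM, both lower and both named after their values were seen.

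Of 29 ligand and matrix genes 17 were tested, of which 5 rose and 9 fell (median log2 fold change -0.15), while Icam5, F11r and Lamb2 missed the threshold. Among all tested genes 44.5% were called higher and 43.2% lower. The LFA-1 ligands Icam1 and Icam2 fell from 138 ± 2.89 to 85.0 ± 1.93 CPM and from 35.9 ± 1.53 to 17.2 ± 1.14 CPM. Lrrc32, which encodes GARP, a carrier of latent TGF-β that αv integrins can act on, fell from 183 ± 1.28 to 14.3 ± 0.581 CPM (log2 fold change -3.68 ± 0.030; edgeR, adjusted p = 1.1e-48). Lamc1, a laminin chain, rose from 14.1 ± 0.382 to 52.5 ± 1.74 CPM. Cdh1, which encodes the αE ligand E-cadherin and was named after its values were seen, was at 1.90 ± 0.184 and 3.90 ± 0.0983 CPM.

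Among 19 surface partners and trafficking genes of integrins 9 rose and 8 fell (median log2 fold change 0.02), while Cd53 and Rab11a missed the threshold. The shares over all tested genes were 44.5% higher and 43.2% lower. Tspan32, a tetraspanin, rose from 6.28 ± 0.280 to 51.5 ± 1.55 CPM (log2 fold change 3.03 ± 0.046; edgeR, adjusted p = 6.9e-40). Cd226, a receptor that associates with LFA-1, rose from 45.4 ± 1.07 to 109 ± 1.93 CPM, and Acap1, an adaptor in β1 recycling, from 254 ± 5.36 to 531 ± 11.1 CPM. Slc3a2, the CD98 heavy chain that binds beta tails, fell from 180 ± 4.44 to 78.9 ± 2.21 CPM.

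Itgae is used together with other genes to mark T cells that reside in tissue, and genes of residence and recirculation moved in both directions. Of 21 tested genes of tissue residence and recirculation 8 rose and 12 fell (median log2 fold change -0.33), while Skil missed the threshold. Over all tested genes 44.5% were called higher and 43.2% lower. Cd69 and Cxcr6, which mark resident cells beside Itgae, fell from 139 ± 1.19 to 34.4 ± 0.407 CPM and from 117 ± 1.29 to 47.7 ± 1.30 CPM. S1pr1, the receptor for exit from tissue, rose from 162 ± 1.92 to 320 ± 3.51 CPM. Other genes of both roles, named after their values were seen, went the other way. The recirculation gene Ccr7 fell from 592 ± 6.71 to 464 ± 7.73 CPM, and Klf2 from 180 ± 8.52 to 149 ± 14.3 CPM. The residence factor Prdm1 rose from 4.25 ± 0.399 to 11.6 ± 0.476 CPM, and Zfp683 from 2.25 ± 0.157 to 2.82 ± 0.282 CPM. TGF-β signalling and Runx3 are known to promote Itgae transcription, and of these genes, named after their values were seen, Runx3 was at 189 ± 6.98 and 331 ± 10.7 CPM, Smad3 at 66.4 ± 0.901 and 105 ± 2.17 CPM, Tgfbr1 at 27.5 ± 0.643 and 20.7 ± 0.342 CPM and Tgfbr2 at 278 ± 3.89 and 221 ± 6.87 CPM. Both receptor genes were lower, and Runx3 and Smad3 higher, in the Carm1-edited libraries. Of the genes in the list that restrain TGF-β signalling, Smad7 was higher, at 38.2 ± 1.43 and 60.7 ± 1.93 CPM. Ski was lower, at 59.9 ± 2.17 and 46.6 ± 1.30 CPM, and Skil missed the threshold.

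**Figure D5:**
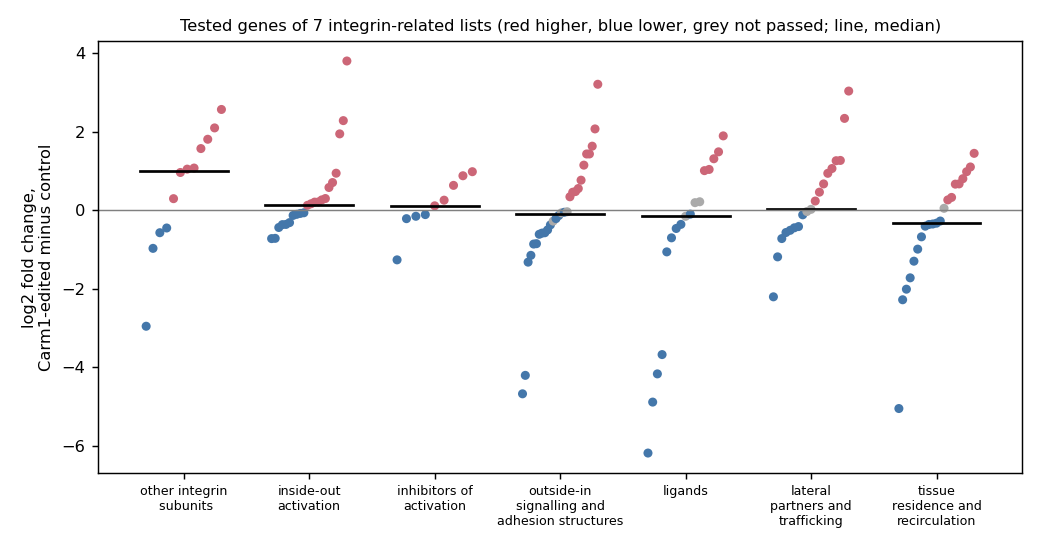
Log2 fold change, Carm1-edited minus control (y axis), of every tested gene in 7 integrin-related lists, in red where called higher, blue where called lower and grey where not passed, with a black line at each list's median. The lists hold calls in both directions, and the medians run from 1.00 for the other integrin subunits to -0.33 for tissue residence and recirculation.

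The genes closest to Itgae in pattern, by Euclidean distance between log2 CPM centred on the gene mean over the 8 libraries, were H2-Oa, Tert and Kcna2 among 12426 named genes, at distances of 0.17, 0.19 and 0.20. H2-Oa, which encodes a chain of an MHC class II chaperone regulator, was at 12.6 ± 0.216 and 129 ± 2.68 CPM, and Tert, the telomerase reverse transcriptase, at 1.06 ± 0.104 and 10.97 ± 0.755 CPM. Kcna2, a potassium channel gene, was at 4.24 ± 0.441 and 40.9 ± 1.19 CPM. For Itga1 they were C3ar1, Cdk6 and Adgrg1, at distances of 0.48, 0.49 and 0.50, with Cdk6, a kinase of the G1 phase, at 449 ± 6.39 and 53.7 ± 2.70 CPM. With 2 groups of libraries such likeness is little more than a like fold change.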

How the data were processed

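Polyadenylated RNA of 4 control and 4 Carm1-edited OT-I CD8 T cell samples was made into libraries with a TruSeq RNA v2 kit, which does not mark strand, and sequenced as paired 150 bp reads, per the labels' protocols. Each deposited table lists genes by Ensembl identifier, with exon lengths and whole-number counts that the authors made with RSEM, per the labels' protocols, on mm10, per the submitters' processing notes. RSEM estimates are usually fractional, and the rounding, aligner, annotation, strand setting and versions are not given. How reads of similar or overlapping genes were assigned may affect their counts.

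Groups came from source names and replicate numbers from titles. Symbols for 48970 of 49315 identifiers came from a gene name table, and 8 of the 10 integrin genes have the same span in GENCODE M21 as in the files. Rows without a symbol held 0.0269% to 0.0535% of counts and stayed in the test. Chi-square values per degree of freedom, from genes with 20 or more counts, were 1.45 to 13.5 in the 12 pairs of libraries within groups, all above sampling noise, and each library was counted separately.

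Counts were filtered with filterByExpr (14970 genes), scaled with TMM and tested with edgeR 4.0.16 (R 4.3.3; robust quasi-likelihood F tests, two-sided, Benjamini-Hochberg over all tested genes, threshold 0.05). SEs of log2 fold changes were taken as their size over the square root of F. CPM per kb divides by the exon length in the files. Ratios between chains needed at least 10 counts of both genes in every library. A count of 3 in a library is 0.0724 to 0.0799 CPM. Intervals from counts cover counting error only. Promoters are from RefSeq (GRCm38.p6). Simulated counts were used to test the edgeR step. Alternatives were RLE and upper-quartile factors, library totals, other filters, DESeq2 1.42.0, limma-voom (limma 3.58.1), glmTreat, the replicate number as a block and each library left out.

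The members, lists and tests were chosen with earlier results of these data known. Genes named are the 10 integrins, Carm1, up to 4 genes per related list with the smallest adjusted p and a mean of at least 2 CPM, markers from the 2 most abundant of a list, and the 3 genes nearest in pattern to the largest rise and fall. Other genes are named as overlapping neighbours, as markers of a cell type that carries the integrin beside them, or for their role after their values were seen. Genes that meet this rule but are withheld are not reported here.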

Additional observations from a re-analysis of the deposited data

Results flagged for a closer look

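Of 40 sets of 4 libraries examined (10 genes and 10 ratios in each group), 2 had one library far from the other 3 by Dixon's test, which chance gives in about 1 in 20 sets. Itgav in Carm1-edited replicate 3 was at 33.3 CPM, where the other libraries were at 30.8, 31.0 and 31.0 CPM. Leaving out each library in turn gave log2 fold changes of Itgav from 0.62 to 0.67. Itgb3 in control replicate 3 was at 83.4 CPM, where the others were at 79.0, 79.5 and 79.6 CPM, and leaving out each library in turn gave 0.86 to 0.89.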

How the results depend on the processing

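The direction and call of Itgae, Itga4, Itgb7, Itgav, Itga6, Itgb3 and Carm1 were the same in all 17 alternatives, and those of Itga1 in the 16 that tested it, since a filter of at least 5 CPM in 4 libraries removed it. Log2 fold changes ran from 3.28 to 3.54 for Itgae, from 1.55 to 1.79 for Itga4, from 0.69 to 0.93 for Itgb7 and from -3.34 to -2.96 for Itga1. For Itgb1 the value was reversed to 0.026 with upper-quartile factors and was -0.03, not passing, with library totals alone. Against a 1.5-fold change Itgal, Itgb1 and Itgb2 no longer passed, 3992 of all genes were higher and 3444 lower, and in the lists 2 other integrin subunits were lower, 5 activation genes higher and 2 lower, 3 inhibitors higher and 1 lower, 7 adhesion-site genes higher and 5 lower, 3 surface partner and trafficking genes lower and 7 residence genes lower. Upper-quartile factors and library totals alone each gave 6 activation genes and 1 inhibitor lower. The filter at 5 CPM, which tests fewer genes, gave 1 other subunit higher and 2 lower, 6 activation genes lower, 2 inhibitors lower, 9 adhesion-site genes lower, and 1 ligand gene higher and 5 lower. Where not stated, the cause was not tested. Leaving out each library in turn gave 6646 to 6712 genes higher and 6474 to 6568 lower and changed no call on the 10 genes or the ratios.

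The replicate numbers did not pair the libraries: deviations from the group means correlated at -0.085 to -0.051 between libraries of the same number, and 0 of 8 libraries correlated best with its own number. With the replicate number as a block 6611 genes were higher and 6420 lower. For the ratios a sign-flip test over the 4 numbered pairs cannot give a p below 0.125, so none passed, with unchanged log2 differences of 0.16 (Itgal over Itgb2), 2.61 (Itgae over Itgb7), 0.86 (Itga4 over Itgb7), 1.77 (Itga4 over Itgb1), -3.02 (Itga1 over Itgb1), -0.54 (Itga6 over Itgb1), 0.85 (Itgav over Itgb1), -0.22 (Itgav over Itgb3), 1.75 (Itgae over Itga4) and 0.91 (Itgb7 over Itgb1). With at least 50 counts required, the ratio of Itga1 to Itgb1 gave no value. Depth limits Itga1 most, at 10 to 17 counts per Carm1-edited library.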

Other observations

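The marker lists not set beside an integrin above had these summed levels per library. Over all tested genes 44.5% were called higher and 43.2% lower. Of 4 markers of CD4 and regulatory T cells all rose, from between 8.65 and 9.28 CPM in control to between 38.3 and 41.8 CPM in Carm1-edited libraries, mostly as Zbtb7b, a transcription factor of the CD4 lineage. Of 6 mast cell and basophil markers 5 were tested and fell, the sum going from between 28.6 and 29.9 CPM to between 13.7 and 14.8 CPM. The 4 erythroid markers summed to between 3.90 and 4.48 CPM in control and to between 0.144 and 0.385 CPM in Carm1-edited libraries. The 7 endothelial and fibroblast markers summed to between 130.4 and 133 CPM in control and to between 136 and 142 CPM in Carm1-edited libraries, mostly as Pecam1, which T cells also express. The part of these cells in the integrin results was not tested.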
